A study of Mus musculus with 36 samples.

Results

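The genes described here are 10 markers of retinal ganglion cells (RGCs): Rbpms, Rbpms2, Sncg, Thy1, Pou4f1, Pou4f2, Pou4f3, Slc17a6, Nrn1 and Isl2. They were taken by name as marker genes of this cell type, with earlier results of these data known. All 10 are among the 55487 genes of the deposited count table. RGCs are the output neurons of the retina. Their cell bodies lie in the inner retina and their axons run through the optic nerve head and the optic nerve to the brain, so that injury of the nerve reaches the cell body through the axon. RNA of the cell body is collected with the retina, whereas the nerve holds RGC axons together with the RNA of its glial, vascular and connective tissue cells.

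Bulk RNA-seq was measured in C57BL/6 mice, 2 to 4 months old per the study's methods, in 3 tissues: the retina, the short unmyelinated optic nerve behind the eye (UON) and the myelinated optic nerve (MON). The groups in each tissue were naïve mice (0D, no injury of either eye), mice at 3 days (3D) and 2 weeks (2W) after crush of 1 optic nerve with forceps, and mice at 3D, 2W and 6 weeks (6W) in the Glaucoma model, in which microbeads injected into the chamber behind the cornea of 1 eye raise its pressure. No group carried a transgene or a deletion. In every tissue a group consisted of a library from the pooled RNA of 2 female mice and another from 2 male mice, so that n = 2 pools throughout, a pool stands for its sex as well as its mice, and the p-values measure the spread between pools. The 12 retina libraries held 19.9 to 56.0 M (mega) estimated counts with a median of 36.8 M counts. The UON libraries held 16.2 to 58.5 M counts and the MON libraries 16.3 to 78.1 M counts. Photoreceptor genes summed to 26402 to 26748 FPKM in naïve retina and to at most 44.7 FPKM in naïve nerve, and oligodendrocyte genes to 48473 to 56386 FPKM in MON, 8236 to 11541 in UON and 41.4 to 44.7 in retina, so that each tissue carried the markers of its label and oligodendrocyte RNA was also present in UON. The lowest retina total was that of the female Glaucoma 3D pool, which also held lower marker levels than its male counterpart, as described with the Glaucoma model.

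By function the markers fall into 4 sets. Rbpms and Rbpms2 are RNA-binding proteins. Pou4f1, Pou4f2 and Pou4f3 are POU-domain and Isl2 a LIM-homeodomain transcription factor of RGC differentiation and subtype identity. Slc17a6 is the vesicular glutamate transporter VGLUT2 that loads glutamate into the synaptic vesicles of RGCs. Sncg is gamma-synuclein, a soluble protein of axons and terminals, Thy1 a glycoprotein of the neuronal surface, and Nrn1 neuritin, a small membrane-anchored protein linked to neurite growth.

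Levels between genes were compared by the deposited FPKM, which are per length of transcript. In naïve retina Sncg was highest, at 229 ± 35.6 FPKM (mean ± SD, n = 2). It was followed by Nrn1 at 22.7 ± 3.60, Rbpms at 19.6 ± 2.22, Rbpms2 at 18.3 ± 2.45, Slc17a6 at 15.8 ± 1.13 and Thy1 at 14.2 ± 7.04 FPKM. The transcription factors were lowest, with Isl2 at 4.12 ± 0.925, Pou4f1 at 2.35 ± 0.367, Pou4f2 at 1.51 ± 0.000341 FPKM and Pou4f3 at 1.79 and 1.21 FPKM in the female and male pool. The pools of Sncg lay above those of every other marker and the pools of Isl2 above those of the other 3 factors, while Rbpms overlapped both Nrn1 and Rbpms2, the wide pair of Thy1 overlapped Rbpms, Rbpms2 and Slc17a6, and Pou4f2 could not be ordered against Pou4f3.

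All coordinates are on GRCm38. Rbpms lies on chromosome 8 from 33782643 to 33929863 (minus strand) and Pou4f2 on the same chromosome from 78433010 to 78436645 (minus strand). Chromosome 9 holds Thy1 (44043384 to 44048579, plus strand), Isl2 (55538672 to 55546180, plus strand) and Rbpms2 (65629648 to 65660528, plus strand). Sncg (34370274 to 34374789) and Pou4f1 (104461676 to 104467999) are on the minus strand of chromosome 14, Nrn1 (36725361 to 36735131) on the minus strand of chromosome 13, Slc17a6 (51622006 to 51671119) on the plus strand of chromosome 7 and Pou4f3 (42394539 to 42397249) on the plus strand of chromosome 18. In the Gencode M21 annotation 1 of the 10, Nrn1, shares exon bases with another gene, namely 501 bases with Fars2 on the opposite strand. Strand was not named for these libraries, so reads in those 501 bases cannot be assigned to either gene, and the mean estimated count of Fars2 over the retina libraries, 988, was near that of Nrn1, 890.5.

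RefSeq start sites on GRCm38.p6 matched 6 of the markers (Isl2, Pou4f1, Pou4f2, Rbpms2, Slc17a6 and Sncg; 7 windows, as Slc17a6 had 2). The 250 bases before each start were searched on both strands for ATAATTA and CATTAA, letters found in sites of POU4F proteins, for CTAATG, found in sites of ISL proteins, and for the E-box CAGCTG, a site type of basic helix-loop-helix factors. No motif contains another, and the ends of the AT-rich motifs can share bases in a window. Windows of the same length at all 32851 RefSeq starts held ATAATTA in 2.5%, CATTAA in 7.91%, CTAATG in 6.36% and CAGCTG in 13%. Among the 7 windows of the markers, 1 held the reverse complement of ATAATTA, 2 held CAGCTG and 0 held either of the others. The 3 windows with a match follow, with the match in capitals, and that of Sncg, the marker with the highest level, for comparison. A match is a description of the letters only.

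Slc17a6, chr7:51624387-51624636, plus strand, match 81 bases before the start: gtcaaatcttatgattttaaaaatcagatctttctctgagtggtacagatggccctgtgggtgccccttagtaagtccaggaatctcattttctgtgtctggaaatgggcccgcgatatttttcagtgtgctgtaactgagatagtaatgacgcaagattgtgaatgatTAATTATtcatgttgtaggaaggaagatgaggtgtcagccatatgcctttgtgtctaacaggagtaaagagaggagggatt

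Pou4f1, chr14:104468000-104468249, minus strand, match 118 bases before the start: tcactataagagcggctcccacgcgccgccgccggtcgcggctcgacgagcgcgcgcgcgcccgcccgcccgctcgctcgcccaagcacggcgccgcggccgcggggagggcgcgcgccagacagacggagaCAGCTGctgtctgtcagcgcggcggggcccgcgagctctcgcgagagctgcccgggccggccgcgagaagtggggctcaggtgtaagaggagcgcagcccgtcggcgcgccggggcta

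Rbpms2, chr9:65630332-65630581, plus strand, match 80 bases before the start: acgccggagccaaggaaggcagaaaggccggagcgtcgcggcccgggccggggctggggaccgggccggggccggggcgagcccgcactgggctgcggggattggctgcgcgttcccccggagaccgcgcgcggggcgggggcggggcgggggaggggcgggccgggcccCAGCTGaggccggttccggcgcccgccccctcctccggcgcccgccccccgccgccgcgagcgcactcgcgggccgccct

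Sncg, chr14:34374670-34374919, minus strand, no match: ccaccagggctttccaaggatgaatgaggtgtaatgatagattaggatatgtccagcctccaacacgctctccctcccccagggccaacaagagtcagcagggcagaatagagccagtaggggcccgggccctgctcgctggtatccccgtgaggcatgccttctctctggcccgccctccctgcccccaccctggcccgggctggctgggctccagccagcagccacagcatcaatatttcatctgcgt

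The windows differ in base composition. The Slc17a6 window holds 41.2% G and C, the Sncg window 61.6%, the Pou4f1 window 78.0% and the Rbpms2 window 84.8%, against a median of 52.4% over all starts.

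The comparison of crushed with naïve retina asks how much RGC marker RNA is left in the retina at each time after the axons were crushed. By 2W after crush all 10 markers lay below both naïve pools in both pools (19.2% of 24790 retina genes did) and 7 were called lower, to between 4.07% (Rbpms2) and 12.2% (Slc17a6) of the naïve mean. Calls required a log2 change over 1, up or down, together with an adjusted p under 0.05 in edgeR's quasi-likelihood test (Benjamini-Hochberg over all genes tested). At this setting 71 of 22671 genes tested were called in Crush 2W retina (0.313%), 54 of them lower (0.238%) and 17 higher (0.075%), and the markers made up 7 of those 54. The median log2 fold change of the 10 markers was -3.81, against 0.01 over all genes tested. In bulk tissue, fewer RGCs and less of an RNA per RGC cannot be told apart. Levels of 1 gene across libraries are given as CPM, its count relative to the library total after TMM scaling within the tissue.

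**Figure D1:**
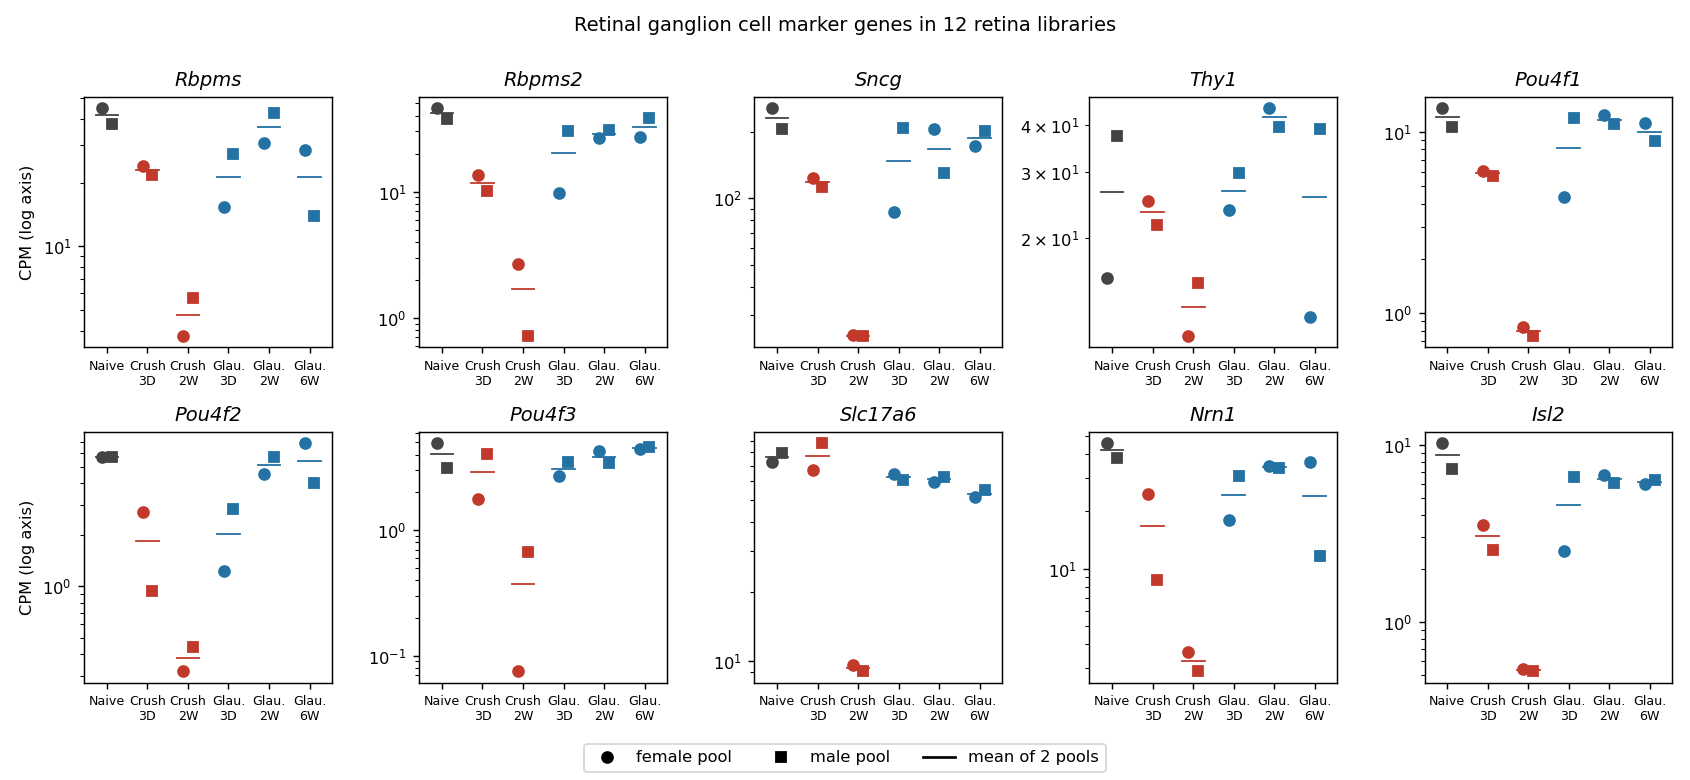
CPM (log axis) of the 10 RGC marker genes in the 12 retina libraries, with circles for female pools, squares for male pools and a line for the mean of 2 pools. In Crush 2W retina both pools of every marker lie below both naïve pools, and Slc17a6 at Crush 3D lies at the naïve level.

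Of the RNA-binding proteins, Rbpms stood at 44.9 and 38.0 CPM in the naïve female and male pools, at 24.04 and 21.8 CPM in Crush 3D and at 3.78 and 5.68 CPM in Crush 2W. The 3 groups did not overlap, and the Crush 2W pools were lowest. Its log2 fold change at 2W was -3.15 ± 0.26 (SE; edgeR adjusted p = 0.0106). Rbpms2 stood at 46.0 and 37.3 CPM in naïve retina, at 13.5 and 10.1 CPM in Crush 3D and at 2.67 and 0.720 CPM in Crush 2W. It had the lowest value of the 10 relative to naïve at both times, with a log2 change of -4.76 ± 0.42 at 2W (edgeR adjusted p = 0.0143).

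Among the transcription factors, Pou4f1 stood at 13.5 and 10.6 CPM in naïve retina, at 6.11 and 5.69 CPM in Crush 3D and at 0.841 and 0.748 CPM in Crush 2W. Its pools were close to each other at both crush times, and its log2 fold change at 2W was -3.92 ± 0.30 (edgeR adjusted p = 0.0101). Isl2 stood at 10.2 and 7.31 CPM in naïve retina, at 3.54 and 2.54 CPM in Crush 3D and at 0.542 and 0.526 CPM in Crush 2W. Its groups did not overlap either, and its log2 fold change at 2W was -4.02 ± 0.36 (edgeR adjusted p = 0.0144).

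Pou4f2 and Pou4f3 had fitted changes at 2W close to that of Pou4f1 but were not called. Pou4f2 stood at 5.74 CPM in both naïve pools, at 2.73 and 0.940 CPM in Crush 3D and at 0.318 and 0.443 CPM in Crush 2W, with a log2 change at 2W of -3.92 ± 0.60 (edgeR adjusted p = 0.0789). Pou4f3 stood at 4.91 and 3.12 CPM in naïve retina, at 1.77 and 4.04 CPM in Crush 3D and at 0.0748 and 0.665 CPM in Crush 2W, with a log2 change of -3.90 ± 0.89 (edgeR adjusted p = 0.204). The depth was thin for both: the Crush 2W pools held 17 and 16 estimated counts of Pou4f2 and 4 and 24 of Pou4f3, and a pair of reads gives about 4 estimated counts in this table. DESeq2, the study's tool, gave an adjusted p of 7.7e-07 for Pou4f2 and of 6.1e-05 for Pou4f3. It called 9 markers at 2W, where 346 of 39895 genes were called. The total given for DESeq2, here and below, is every gene with a count above 0 in the fit. That of edgeR is the genes left after the filter on low counts, so shares of the 2 tools are not alike.

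Slc17a6 stood at the naïve level at 3D and was low at 2W. It stood at 72.5 and 79.7 CPM in naïve retina, at 66.8 and 87.4 CPM in Crush 3D and at 9.57 and 9.03 CPM in Crush 2W. The Crush 3D pools lay on either side of the naïve pools, and both Crush 2W pools lay far below them. Its log2 fold change was 0.01 ± 0.15 at 3D (edgeR adjusted p = 0.996) and -3.04 ± 0.16 at 2W (edgeR adjusted p = 0.00249).

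Sncg stood at 255 and 204 CPM in naïve retina, at 124 and 112 CPM in Crush 3D and at 24.3 and 24.04 CPM in Crush 2W. Its pools were tight within each crush group, and its log2 fold change at 2W was -3.25 ± 0.13 (edgeR adjusted p = 0.00156). Nrn1 stood at 45.4 and 38.1 CPM in naïve retina, at 24.6 and 8.71 CPM in Crush 3D and at 3.63 and 2.88 CPM in Crush 2W. Its pools were wide apart at 3D and close at 2W, with a log2 change at 2W of -3.71 ± 0.36 (edgeR adjusted p = 0.0202).

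Thy1 was the least changed marker at 2W. It stood at 15.6 and 37.5 CPM in naïve retina, at 25.1 and 21.7 CPM in Crush 3D and at 10.98 and 15.2 CPM in Crush 2W. The naïve pools differed more from each other than the crush pools did, the Crush 3D pools lay between them, and the Crush 2W male pool came close to the naïve female pool. Its log2 fold change at 2W was -0.97 ± 0.34 (edgeR adjusted p = 0.455), and DESeq2 did not call it either (adjusted p = 0.0769).

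The 7 calls at 2W held in every fit that left out 1 of the 6 libraries, which called 7 to 9 markers. With the deposited FPKM in limma, in place of counts, 3 markers were called on log2(FPKM + 1) and 0 on log2(FPKM + 0.1), where 0 of all genes were called.

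At 3D after crush 7 of the 10 markers (Rbpms, Rbpms2, Sncg, Pou4f1, Pou4f2, Nrn1 and Isl2) lay below both naïve pools in both pools, against 18.6% of the 24790 retina genes compared in this way. None of the 10 was called by edgeR, where 5 of 22671 genes were (0.0221%; 0.00441% lower and 0.0176% higher), and 7 of the 10 had an unadjusted p under 0.05. The share of all genes under that unadjusted p is not given, here or in the comparisons below. Such counts are thus a description and no result about the markers as a set. The median log2 fold change of the markers was -0.99, against 0.01 over all genes. The values ran from -1.84 ± 0.36 for Rbpms2 (edgeR adjusted p = 0.332), -1.73 ± 0.54 for Pou4f2, -1.52 ± 0.31 for Isl2 and -1.46 ± 0.33 for Nrn1 through -1.02 ± 0.26 for Pou4f1, -0.95 ± 0.12 for Sncg, -0.85 ± 0.24 for Rbpms and -0.74 ± 0.76 for Pou4f3 to -0.06 ± 0.34 for Thy1 and the 0.01 of Slc17a6. DESeq2 called 2 of the 10 at 3D, Rbpms2 (adjusted p = 7.2e-06) and Nrn1 (adjusted p = 0.000535), where 135 of 39895 genes were called. Sncg had the smallest adjusted p of the 10 there (1.5e-06) and missed the call by its log2 fold change of -0.96 alone. Leaving out a library moved the edgeR count to 1 in 3 fits: Rbpms2 was called without either Crush 2W pool and Sncg without the naïve male pool.

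The ratio of Slc17a6 to Rbpms2 was taken in each library to set the transporter beside another marker. In CPM it was 1.58 and 2.13 in the naïve female and male pools, 4.95 and 8.67 in Crush 3D, and 3.58 and 12.5 in Crush 2W. Both Crush 3D pools were above both naïve pools. The ratio of Slc17a6 to Sncg was 0.284 and 0.390 in naïve retina, 0.539 and 0.778 in Crush 3D, and 0.395 and 0.376 in Crush 2W, so it was high at 3D and back near the naïve pools at 2W. High ratios were not limited to crush. The female Glaucoma 3D pool, at 6.56 to Rbpms2 and 0.739 to Sncg, was within the range of the Crush 3D pools. The male Glaucoma 3D pool, at 2.00 and 0.294, was within the naïve range. These ratios are descriptions and were not tested.

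The test between the 2 crush times asks which markers fell after 3D. At 2W 2 markers were lower than at 3D by the test, Slc17a6 with a log2 fold change of -3.05 ± 0.16 and Sncg with -2.30 ± 0.13 (edgeR adjusted p = 0.00564 for both), where 11 of 22671 genes were called (0.0485%), 0.0441% lower and 0.00441% higher. All 10 had a log2 fold change below 0, with a median of -2.40, and Pou4f1 (-2.90 ± 0.29, edgeR adjusted p = 0.0513) and Rbpms (-2.30 ± 0.25, edgeR adjusted p = 0.0581) were next. Among all genes DESeq2 called 161 of 39895 here, and edgeR without the sex term 31 of 22671. The count of markers rested on the pools and the tool. It was 8 in DESeq2, 4 without the sex term, 4 without the male Crush 3D pool, 5 without the male Crush 2W pool, and 6 and 8 without the female and the male naïve pool.

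**Figure D2:**
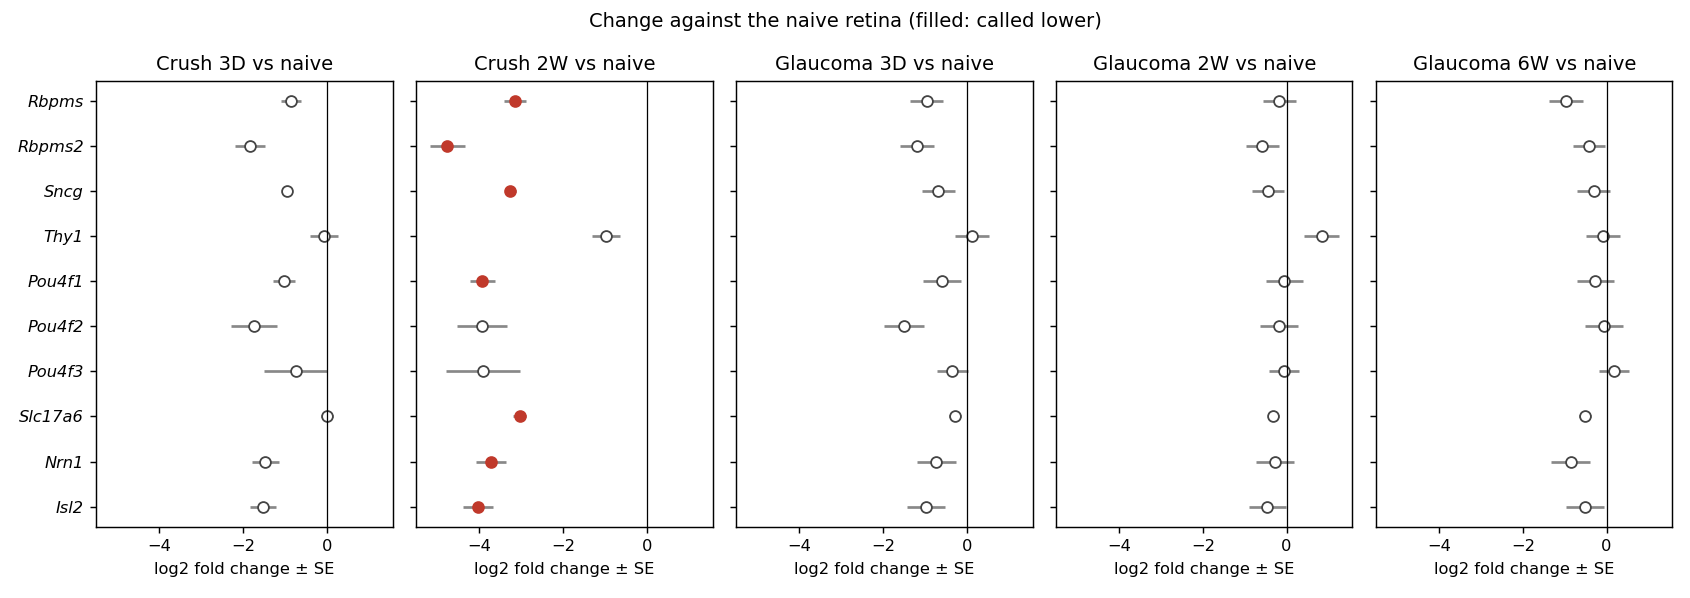
Log2 fold change against naïve retina with its SE (edgeR) for the 10 RGC marker genes at Crush 3D and 2W and at Glaucoma 3D, 2W and 6W, with filled points for genes called lower. Filled points appear at Crush 2W alone, for 7 of the 10 genes, and Thy1 stands apart there at -0.97.

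Other genes known in RGCs had smaller changes at Crush 2W than the 10 markers by their median. Of a further 20 RGC-expressed genes, 8 were called lower and 0 higher, and their median log2 fold change was -1.29. The 4 with the smallest p were Nefm (-2.81 ± 0.13), the neurofilament medium chain, Nefl (-3.03 ± 0.14), the neurofilament light chain, Nell2 (-2.77 ± 0.16), a secreted glycoprotein of neurons, and Chrna6 (-2.03 ± 0.15), a nicotinic acetylcholine receptor subunit, with edgeR adjusted p of 0.00164, 0.00164, 0.00381 and 0.0101. Markers of other retinal neurons were centred near 0: the medians were -0.11 for 12 amacrine, -0.00 for 12 bipolar, 0.09 for 15 photoreceptor and -0.12 for 5 horizontal cell genes. The 1 gene called among these was Calb2 (-1.92 ± 0.13, edgeR adjusted p = 0.00631), calretinin, which amacrine cells share with RGCs.

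Markers of glia did not pass the test at Crush 2W in retina. At Crush 2W the median of the 11 microglia genes was 1.34 on the log2 scale, with 0 called, and their summed FPKM was 43.6 and 47.1 in naïve retina and 94.4 to 107 in Crush 2W. It was above naïve in every other injured group too, at 75.5 to 110.3 in Crush 3D and at 108 to 151, 56.9 to 113 and 85.8 to 95.0 in Glaucoma 3D, 2W and 6W. The 10 Müller glia genes had a median of 0.19 and the 10 housekeeping genes of 0.00. The summed FPKM of the 10 RGC markers was 302 and 355 in the naïve pools, 173 to 200.4 in Crush 3D and 36.6 to 39.4 in Crush 2W, while that of the photoreceptor genes was 26402 to 26748 in naïve retina and 29518 to 30931 in Crush 2W. Most of the RGC marker sum is Sncg, at 229 FPKM of a mean sum of 329 FPKM in naïve retina. The part of changes in cell makeup in the marker values was not tested.

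**Figure D3:**
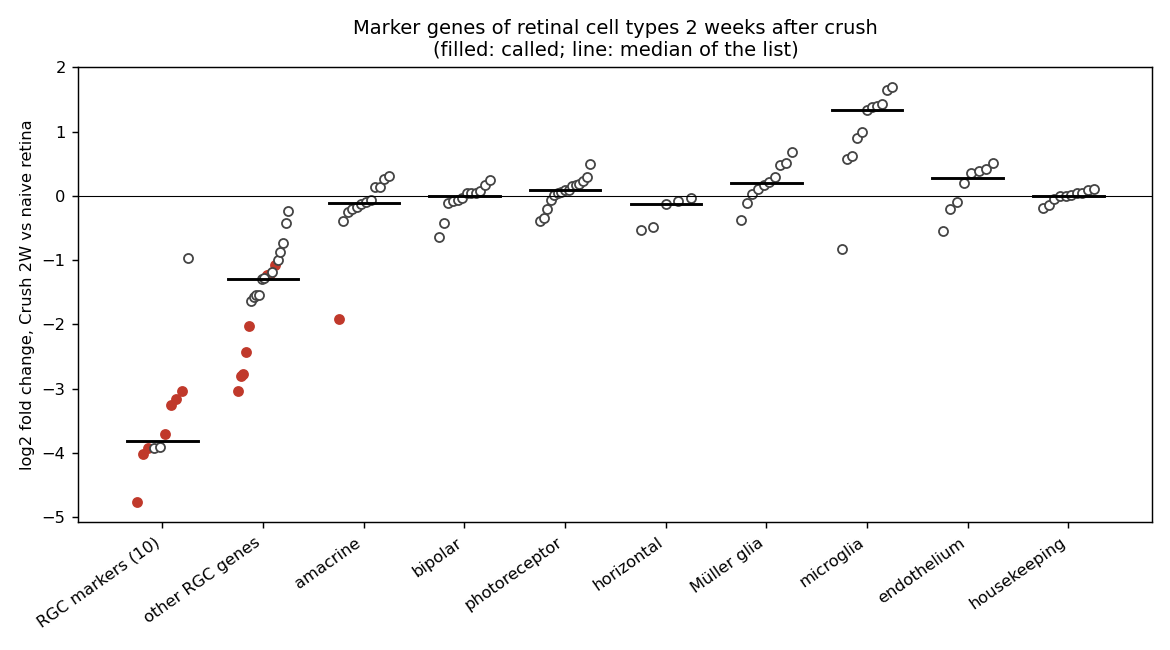
Log2 fold change of each marker gene at Crush 2W against naïve retina, by cell type, with filled points for genes called and a line for the median of the list. The 10 RGC markers centre at -3.81 and a further 20 RGC genes at -1.29, while the lists of other retinal neurons and the housekeeping genes centre near 0 and microglia genes at 1.34.

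Over the 12 retina libraries the markers followed each other to different degrees. The Pearson correlation of a marker's log2 CPM with the mean of the other 9 was 0.99 for Pou4f1, 0.98 for Isl2, 0.97 for Sncg, 0.94 for Rbpms2, 0.93 for Rbpms, 0.91 for Pou4f2 and Nrn1, 0.89 for Slc17a6, 0.88 for Pou4f3 and 0.57 for Thy1. Without the 2 Crush 2W libraries, over 10 libraries, it stayed at 0.94 for Isl2, 0.93 for Pou4f1 and 0.90 for Rbpms2 but was -0.23 for Slc17a6 and 0.04 for Thy1. These correlations describe 12 libraries of 6 groups, rest in large part on Crush 2W for some genes, and carry no test.

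The genes outside the 10 with the most similar course, of 12588 compared, were Trarg1 (r = 0.99 with the mean of the markers), Nefl (0.99), Nefm (0.98), Nell2 (0.98), Cplx1 (0.97), Ncs1 (0.97), Rgs4 (0.97), Sbk1 (0.96), Calb2 (0.95) and Sult4a1 (0.95). Cplx1 is complexin 1 of the synaptic vesicle machinery, Ncs1 a neuronal calcium sensor and Rgs4 a regulator of G protein signalling. The likeness of Trarg1 was still 0.97 over the 10 libraries without Crush 2W, and that of Sbk1 was 0.63. In Crush 2W retina the log2 fold change of Trarg1 was -4.79 ± 0.37 (edgeR adjusted p = 0.0103). The gene was picked by its likeness over libraries that include Crush 2W, so this p is not separate from the choice.

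One transcript carried nearly all counts of some markers. Slc17a6-201 held 99.3 to 99.7% of the Slc17a6 counts in the naïve and Crush 2W pools, and Pou4f1-201 93.2 to 100% of the Pou4f1 counts over all retina libraries. Rbpms was spread over 15 transcripts, of which Rbpms-203 held 37.1% in naïve and 57.3% in Crush 2W retina as the mean of 2 pools. In Crush 2W this rests on 202 and 205 estimated counts of the whole gene, and the deposited transcript values are estimates from shared exons. The 2 transcripts of Pou4f3 traded places between pools of 1 group, so no share is given for it.

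In the Glaucoma model the comparison with naïve retina asks whether marker RNA is lower after the microbeads. None of the 10 markers was called at any of the 3 times, where 1 of 23301 genes was called at 3D (0.00429%), 0 at 2W (0%) and 2 at 6W (0.00858%). The medians of the markers were -0.70 at 3D, -0.23 at 2W and -0.36 at 6W, and 9 of 10 markers were below 0 at each time. These medians rested on single pools. At 3D the median was -0.46 without the naïve female pool, -1.55 without the male and -0.23 without the female Glaucoma 3D pool. At 2W it was 0.01 without the naïve female pool and -0.35 without the naïve male pool. At 6W it was -0.01 and -0.58 without these, and -0.55 without the female Glaucoma 6W pool. An unadjusted p under 0.05 was found for 3, 0 and 2 markers in edgeR, and DESeq2 called 0 at each time. Both pools lay below both naïve pools for 6 markers at 3D, 6 at 2W and 5 at 6W, against 19.9%, 18.8% and 21.1% of all retina genes compared.

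At Glaucoma 3D the 2 pools differed. The median log2 difference of the markers from the naïve mean, on log2(CPM + 1), was -1.33 in the female pool, the library with the fewest counts in retina, and -0.33 in the male pool. Rbpms2 stood at 9.83 CPM in the female pool and 30.4 CPM in the male pool, Sncg at 87.2 and 207, Pou4f1 at 4.35 and 11.9, and Isl2 at 2.52 and 6.60 CPM. For these 4 genes the female pool was below both Crush 3D pools, and the male pool was nearer to naïve. The pools of Slc17a6 were close, at 64.5 and 60.9 CPM in the female and male pool, and both lay below both naïve pools. Without the female pool 0 markers were called.

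The fitted changes at Glaucoma 3D were led by Pou4f2 at -1.50 ± 0.47 and Rbpms2 at -1.19 ± 0.40, with edgeR adjusted p of 0.702 and 0.729. They were -0.97 ± 0.46 for Isl2, -0.95 ± 0.40 for Rbpms, -0.72 ± 0.47 for Nrn1, -0.67 ± 0.39 for Sncg, -0.59 ± 0.45 for Pou4f1, -0.34 ± 0.37 for Pou4f3, -0.28 ± 0.14 for Slc17a6 and 0.13 ± 0.41 for Thy1. None was past the threshold.

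At Glaucoma 2W the median change was the smallest of the 3 times, while Thy1, Sncg, Rbpms2 and Pou4f2 had smaller changes at 6W. Rbpms stood at 30.7 and 42.7 CPM, Rbpms2 at 26.6 and 31.0, Nrn1 at 34.7 and 33.8, Pou4f1 at 12.3 and 10.99, Slc17a6 at 59.8 and 62.6, and Sncg at 204 and 130.4 CPM in the female and male pool. Rbpms2, Nrn1 and Slc17a6 were a little below both naïve pools, and Pou4f1 was within their range. Thy1, at 44.4 and 39.4 CPM, lay above both naïve pools, with a log2 change of 0.84 ± 0.41 (edgeR adjusted p = 0.791). The lowest fitted change was that of Rbpms2, -0.58 ± 0.39 (edgeR adjusted p = 0.805).

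At Glaucoma 6W the pools of Slc17a6 were close to each other. It stood at 51.2 and 54.7 CPM, below both naïve pools, with a log2 change of -0.52 ± 0.14 (edgeR adjusted p = 0.772). Rbpms stood at 28.4 and 13.9 CPM and Nrn1 at 36.2 and 11.6 CPM in the female and male pool, with log2 fold changes of -0.97 ± 0.40 and -0.86 ± 0.47. For both genes the male pool was the low one. Thy1 stood at 12.3 and 39.0 CPM, the same order of the sexes as in the naïve pools. Pou4f1 (11.2 and 8.87 CPM), Pou4f2 (6.85 and 4.03), Pou4f3 (4.41 and 4.59), Isl2 (6.01 and 6.34), Rbpms2 (27.0 and 38.3) and Sncg (172 and 202) had log2 fold changes between -0.52 (Isl2) and 0.18 (Pou4f3). From 3D to 6W of the Glaucoma model 0 markers were called, 1 had an unadjusted p under 0.05, and 3 of 23301 genes were called (0.0129%). DESeq2 also called 0.

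The direct contrast of crush with the Glaucoma model at the same time leaves the naïve pools out of the difference, although all 12 retina libraries entered the fit and set its spread and scaling. At 2W 5 markers were lower after crush: Slc17a6 (-2.71 ± 0.16, edgeR adjusted p = 0.000185), Pou4f1 (-3.86 ± 0.46, 0.0174), Sncg (-2.80 ± 0.36, 0.0220), Rbpms (-2.96 ± 0.40, 0.0257) and Isl2 (-3.57 ± 0.48, 0.0257). Among all genes 28 of 24693 were called (0.113%), 26 of them lower (0.105%). The other 5 had log2 differences of -4.04 ± 0.63 (Rbpms2), -3.75 ± 0.63 (Pou4f2), -3.58 ± 0.75 (Pou4f3), -3.42 ± 0.53 (Nrn1) and -1.74 ± 0.42 (Thy1), with edgeR adjusted p from 0.0511 to 0.272. DESeq2 called all 10 here, where it called 182 of 42691 genes. The edgeR count was 2 without either Crush 2W pool, 3 without the male Glaucoma 2W pool and 8 without any 1 of the Crush 3D or Glaucoma 3D pools. The call of Slc17a6 held in all 12 of these fits. At 3D crush and Glaucoma retina gave 0 called markers, 0 with an unadjusted p under 0.05 and 0 in DESeq2, where 2 of 24693 genes were called (0.0081%).

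In the nerve the same genes were measured at lower levels. In naïve mice 8 of the 10 were called higher in retina than in UON, where 31.7% of 23685 genes were called in either direction, and 8 were called higher in retina than in MON, where 27.6% were. The share of markers was thus above the share of all genes called higher, which was 13.5% against UON and 10.9% against MON. Slc17a6 was highest over the nerve, with a log2 difference of 6.22 ± 0.51 to UON and 7.19 ± 0.55 to MON (edgeR adjusted p = 0.000123 and 0.000113). Rbpms was the marker least above UON (0.73 ± 0.27, edgeR adjusted p = 0.0724) and Rbpms2 the one least above MON (0.56 ± 0.27, edgeR adjusted p = 0.169), and Pou4f3 was not called in either comparison.

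The markers are listed here in 2 groups by their naïve level in the nerve, a split that was not tested. The transcription factors were also the lowest markers in naïve retina. Slc17a6, Pou4f1, Pou4f2, Pou4f3 and Isl2 were below 0.7 FPKM in all 4 naïve nerve libraries. Rbpms was at 10.3 and 7.98 FPKM in UON and 4.88 and 3.87 FPKM in MON, Rbpms2 at 6.54 and 7.29 and at 10.9 and 7.69, Sncg at 3.87 and 7.54 and at 11.3 and 14.0, Nrn1 at 3.35 and 3.01 and at 5.34 and 4.15, and Thy1 at 1.02 and 2.49 and at 1.76 and 3.06 FPKM. These 5 were thus all above 1 FPKM in every naïve nerve library. Between naïve UON and MON 0 markers were called by edgeR, where 9.63% of genes were, and 2 had an unadjusted p under 0.05. DESeq2 called 2, where 3675 of 41483 genes were called. These were Rbpms, higher in UON (edgeR 1.01 ± 0.27, adjusted p = 0.0617), and Sncg, lower in UON (edgeR -1.24 ± 0.33, adjusted p = 0.0628).

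**Figure D4:**
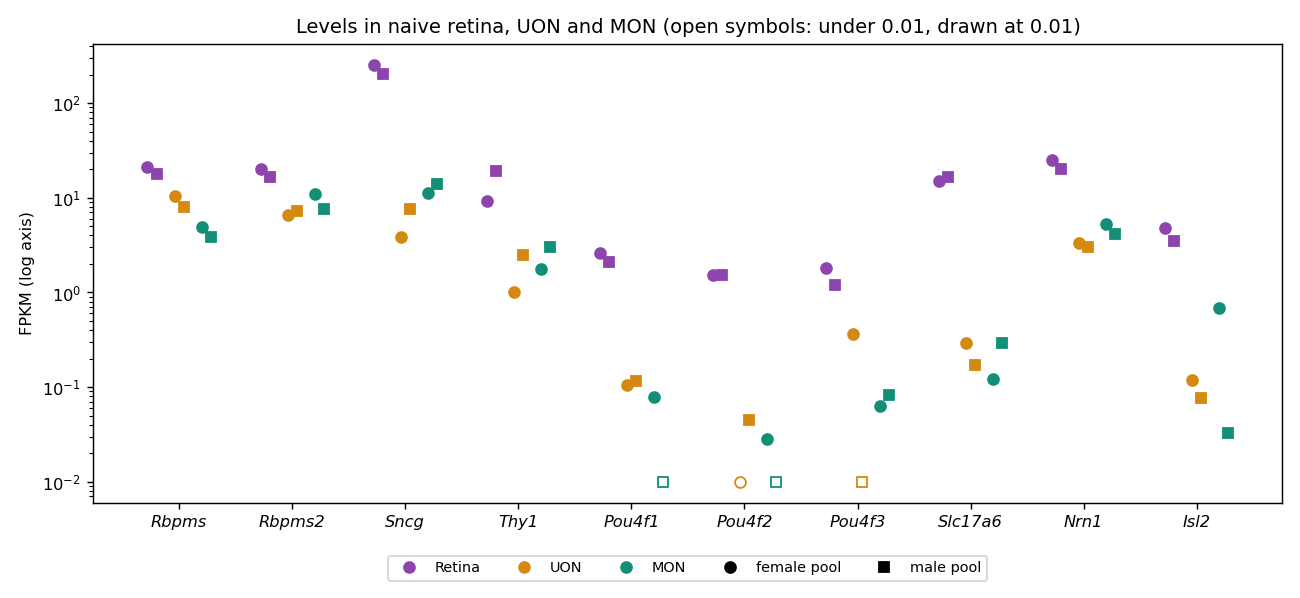
FPKM (log axis) of the 10 RGC marker genes in the naïve pools of retina, UON and MON, with circles for female and squares for male pools and open symbols for values under 0.01. Slc17a6 and the 4 transcription factors are below 0.7 FPKM in the nerve, while Rbpms, Rbpms2, Sncg, Nrn1 and Thy1 are above 1 FPKM there.

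At Crush 2W Nrn1 and Rbpms2 fell in MON, and Nrn1 had the lowest fold change of the 5 markers tested there. It stood at 9.71 and 6.94 CPM in the naïve female and male pool, at 6.14 and 3.72 CPM in Crush 3D and at 0.227 and 0.219 CPM in Crush 2W, where the pools held 4 and 8 estimated counts. The Crush 2W pools lay far below all others, and the log2 fold change was -5.13 ± 0.59 (edgeR adjusted p = 0.0153). Rbpms2 stood at 23.6 and 17.1 CPM in naïve MON, at 9.87 and 10.7 CPM in Crush 3D and at 3.29 and 4.38 CPM in Crush 2W, with a log2 change at 2W of -2.39 ± 0.40 (edgeR adjusted p = 0.0349).

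These were the 2 markers called of the 5 that had enough counts to be tested in MON, where 544 of 19988 genes were called at 2W (2.72%) and 119 of them lower (0.595%). Sncg, at 11.6 and 13.4 CPM in naïve MON and 3.97 and 2.27 CPM in Crush 2W, did not pass (-2.01 ± 0.47, edgeR adjusted p = 0.0759). DESeq2 called Sncg (-2.04, adjusted p = 0.00414), as did edgeR without the sex term (adjusted p = 0.042), without the female Crush 2W pool or without either Crush 3D pool. Thy1 did not pass (-0.70 ± 0.57). Rbpms stood at 10.3 and 7.43 CPM in naïve MON and at 14.4 and 9.61 CPM in Crush 2W, and its log2 fold change was 0.45 ± 0.50 (edgeR adjusted p = 0.768). Both calls were lost without either naïve MON pool, which gave 0 called, and with limma on log2(FPKM + 0.1). The naïve male pool held 17.8 M counts and the female Crush 2W pool 16.3 M counts, so depth was uneven among these libraries. In MON at Crush 3D 0 of 5 markers were called by edgeR and by DESeq2, 3 had an unadjusted p under 0.05, and 4.26% of genes were called, 0.655% lower and 3.61% higher.

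Markers of other cells moved in MON at the same time. Of 11 microglia genes 6 were called higher at Crush 2W, with a median log2 fold change of 2.14, and of the further 20 RGC genes 17 were tested and 4 were called lower (Nefl, Kif5a, Ina and Nefh), with a median of -2.02. The part of added cells in the MON values was not tested.

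The response of Rbpms differed between retina and MON. Its log2 fold change at Crush 2W was lower in retina than in MON by -3.53 ± 0.59 (interaction of tissue and time, edgeR adjusted p = 0.0392), which was the 1 marker called of 10, where 158 of 25398 genes were (0.622%). This call was lost without either naïve retina pool, either Crush 2W retina pool, either naïve MON pool or the female Crush 2W MON pool, with adjusted p from 0.0515 to 0.132. Retina and MON of a group came from the same mice, and with a term for each pool in place of sex, a fit added after the data were seen, the difference was -3.53 (edgeR adjusted p = 0.0475). For Rbpms2 the difference was -2.28 ± 0.65 (edgeR adjusted p = 0.175). For retina minus MON at Crush 3D edgeR and DESeq2 called 0 markers, with 1 at an unadjusted p under 0.05 in edgeR, and 224 of 25398 genes (0.882%) were called.

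In UON 0 markers were called at any time of either model. At Crush 2W, where 6 of 21368 genes were called (0.0281%), 8 markers were tested and 3 had an unadjusted p under 0.05. Nrn1 stood at 5.99 and 5.50 CPM in naïve UON and at 0.730 and 0.569 CPM in Crush 2W (-3.15 ± 0.82, edgeR adjusted p = 0.480). Both of its Crush 2W pools were below both naïve pools, and the spread across UON libraries was wider than in retina, with a common biological coefficient of variation of 0.654 against 0.342 in the fits of crush. Pou4f1 was listed at 0 in both Crush 2W pools and at 18 and 29 estimated counts in the naïve pools. DESeq2 called both Nrn1 and Pou4f1, where 515 of 37507 genes were called. Sncg, at 3.81 and 7.74 CPM in naïve UON and 4.24 and 5.64 CPM in Crush 2W, overlapped between the groups (-0.14 ± 0.60).

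At UON Crush 3D 0 of 8 and at UON Glaucoma 3D, 2W and 6W 0 of 9 markers tested were called, with 0 at an unadjusted p under 0.05, 0 in DESeq2 and 0% of all genes called. In MON at Glaucoma 3D, 2W and 6W 0 of 8 were called, with 0, 2 and 1 at an unadjusted p under 0.05, again with 0% of all genes called. That 0% is for edgeR. DESeq2 called 1 marker there, Rbpms2 at 2W. For retina minus UON after crush edgeR called 0 markers at 3D (0.0115% of genes) and at 2W (0.0689%), with 0 and 4 at an unadjusted p under 0.05. DESeq2 called 0 and 3 for this difference. Shares of all genes called by DESeq2 are not given for these comparisons. Its counts there are thus no result about the markers.

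**Figure D5:**
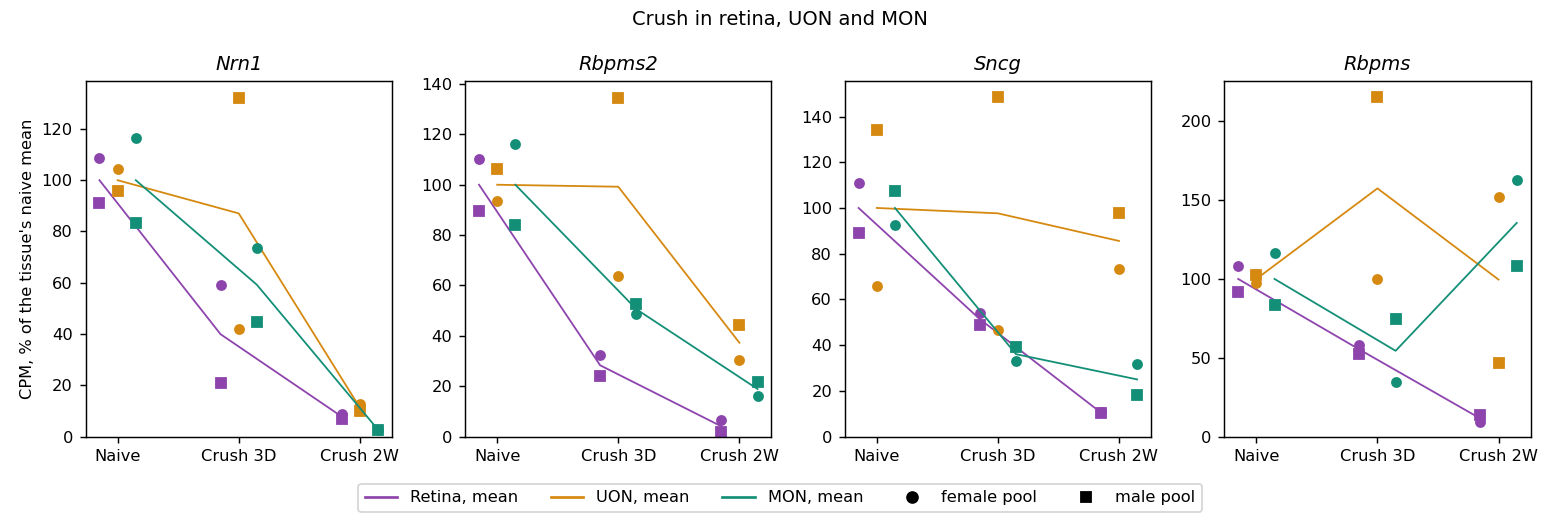
CPM as percent of the naïve mean of the same tissue for Nrn1, Rbpms2, Sncg and Rbpms in naïve, Crush 3D and Crush 2W libraries of retina, UON and MON, with circles for female pools, squares for male pools and lines through the means. At Crush 2W retina is lower for all 4 genes by the test, MON is lower for Nrn1 and Rbpms2 by the test, and Rbpms in MON at Crush 2W is above its naïve mean without passing the test.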

How the data were processed

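RNA of retina, UON and MON was sequenced in 36 libraries (12 per tissue, 2 × 150 bp per the study's methods). The authors aligned reads with HISAT2 2.2.1 to GRCm38 and quantified them with StringTie 1.3.0, per the labels, and deposited estimated counts per gene and transcript, made from coverage. The FPKM and the coverage signal deposited per library come from the same tool. A few values deposited slightly below 0, kept in their own class (coverage and FPKM listed as other values), were set to 0. A 150-base read gives about 2 estimated counts and a pair about 4, so that counts are not independent molecules.

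Estimated counts were tested in R 4.3.3 with edgeR 4.0.16 (quasi-likelihood test, TMM, low counts removed by filterByExpr at min.count 10 and min.total.count 15, group and sex as terms, Benjamini-Hochberg adjustment over all genes tested). Calls needed both a log2 fold change beyond 1 and an adjusted p below 0.05, and the SE is the log2 fold change divided by the square root of F. Crush and Glaucoma were fitted per tissue against the same naïve pools. Crush against Glaucoma, naïve tissues and tissue differences had fits of their own. DESeq2 1.42.0, limma 3.58.1 on log2(FPKM + 1) and log2(FPKM + 0.1), other scaling, no filter, no sex term, all libraries of a tissue and leaving out each library were alternatives. The scripts were tested on counts simulated for the retina crush fit, with changes placed in genes with high counts. The other fits, and changes in genes with few counts, were not covered. The sex term blocks the 2 pools. Same-sex pools of different groups were different mice, while the 3 tissues came from the same mice, so sex is also the pairing by mice among naïve tissues. For the crush response between tissues a term per pool was added as an alternative after the data were seen.

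The members, gene lists and alternatives were chosen with earlier results of these data known. Named genes outside the members were, per list and comparison, at most the 4 called with the smallest p in each direction, and the 10 with the highest correlation with the members. Gene overlaps and exons were read from Gencode M21, the reference at hand, whereas the authors used M25.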

Additional observations from a re-analysis of the deposited data

Results flagged for a closer look

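Among the contrasts of crush times, of the 2 models and of the crush response between tissues, 8 differences passed the test of the difference itself. Differences between naïve tissues are levels and are not counted here. Between the times of crush in retina, the log2 difference of 2W from 3D was -2.30 for Sncg and -3.05 for Slc17a6. Between the models at 2W in retina, the log2 difference of crush from Glaucoma was -2.96 for Rbpms, -2.80 for Sncg, -3.86 for Pou4f1, -2.71 for Slc17a6 and -3.57 for Isl2. Between tissues at Crush 2W, the response of Rbpms was lower in retina than in MON by -3.53 on the log2 scale.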

How the results depend on the processing

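DESeq2 called 2 at Crush 3D, 8 at Crush 2W against 3D, 10 at Crush against Glaucoma 2W, 2 in UON at Crush 2W, 1 in MON at Glaucoma 2W, 2 between naïve UON and MON, and 3 and 2 for the response of retina minus UON and minus MON at Crush 2W. Without the filter on low counts 7 were called at Crush 2W against 3D, 10 at Crush against Glaucoma 2W, 2 between naïve UON and MON and 2 for retina minus MON. Calls among all genes moved too. For retina minus MON at Crush 2W DESeq2 called 1108 of 44838 genes and edgeR 158 of 25398. In retina at Crush 3D edgeR called 53 of 39895 genes without the filter and 5 of 22671 with it. A higher count of markers under another setting is thus not by itself a result about the markers. Without the sex term, which is the replicate block of the pools, 4 were called at Crush 2W against 3D, and no other count moved by over 1.5 times. A term for each pool of the same mice, the pairing across tissues and chosen after seeing the data, left the counts for retina minus UON at 0 and for retina minus MON at 0 (3D) and 1 (2W). On log2(FPKM + 1) limma called 3 in retina at Crush 2W, and on log2(FPKM + 0.1) it called 0 there and 0 in MON. Leaving out 1 library gave 0 to 1 at Crush 3D, 2 to 8 at Crush 2W against 3D, 2 to 8 at Crush against Glaucoma 2W, 0 to 1 in MON at Crush 3D, 0 to 3 in MON at Crush 2W, 0 to 1 between naïve UON and MON, and 0 to 1 for retina minus UON and minus MON at Crush 2W. DESeq2 size factors in edgeR moved none of the 26 counts by over 1.5 times. The cause of these shifts was not tested.

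Fold changes near 0 turned sign. Slc17a6 at Crush 3D was -0.000524 without the filter. At Glaucoma 2W Pou4f1 was 0.033 and 0.047 and Pou4f3 0.0099 and 0.021 in limma with the larger and the smaller pseudocount. With 1 library left out, log2 fold changes at Glaucoma 2W ran from -0.85 to 0.038 for Isl2, -0.35 to 0.30 for Pou4f1, -0.36 to 0.31 for Pou4f3, -0.51 to 0.12 for Rbpms and -1.04 to 0.031 for Rbpms2. At Glaucoma 3D they ran from -1.61 to 0.14 for Pou4f1, -0.70 to 0.00075 for Pou4f3 and -0.20 to 0.47 for Thy1. At Glaucoma 6W they ran from -0.61 to 0.091 for Pou4f1, -0.77 to 0.48 for Pou4f2, -0.14 to 0.54 for Pou4f3, -0.90 to 0.17 for Rbpms2, -0.59 to 0.0029 for Sncg and -0.79 to 0.40 for Thy1. At Crush 3D they ran from -1.83 to 0.78 for Pou4f3, -0.17 to 0.18 for Slc17a6 and -0.62 to 0.51 for Thy1. Rbpms in MON at Crush 2W ran from -0.025 to 0.88 and Sncg in UON at Crush 2W from -0.65 to 0.31.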
